A study of Mus musculus with 24 samples.

Results

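B16-D-733 is a line of mouse melanoma cells recovered from a second passage through tumour dormancy, and its RNA was compared with that of the parental line B16-M. The members are the 4 arrays whose titles name B16-D-733, of 24 arrays in the series, and they were set against the 3 arrays titled B16-M. All melanoma lines of the series are B16F1-GFP cells, that is, the B16-F1 melanoma of C57BL/6 mice marked with a green fluorescent protein, and all were grown in DMEM with 10% FBS before RNA extraction. B16-M is the parental line. B16-D is the first dormant line, isolated late in dormancy from mice held free of tumour growth by vaccination with irradiated cells that secrete GM-CSF, and the second generation was recovered at a brain site. Which of the numbered second-generation names in the culture notes belongs to B16-D-733 is not given in the sources used here. Each line is a cell population expanded in vitro, so that its arrays describe cultured cells and not cells within a dormant lesion. No label says that the arrays of a line came from separate cultures, and the p-values then measure only the spread between these samples, which may be technical.

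Melanoma cells descend from the pigment lineage of the neural crest, in which the transcription factors MITF and SOX10 hold up the genes of melanin synthesis. Tumour cells that persist without net growth are known to differ in cell cycle inhibitors, in signals from the surrounding matrix, in growth arrest ligands such as GAS6 and in their visibility to T cells through MHC class I. The extracellular matrix is built from secreted collagens, laminins and glycoproteins, which need chaperones and modifying enzymes in the endoplasmic reticulum before they leave the cell.

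On these arrays the brightness of a spot reports the amount of RNA of the matching transcript. A level is given here as the log2 intensity of a probe minus the 75th percentile of its array, so that 0 is the level of the 75th percentile itself, and a log2 change is the mean level in B16-D-733 minus that in B16-M. Of 59305 measured spots, without the control spots, between 50.9% and 55.8% were well above background on the 7 arrays. In B16-D, 1 array, replicate 2, stood apart with 90.3% and was left out of the fit. Of the 4 B16-D-733 titles, 3 carry a date and no B16-M title does. Arrays of each line lay on 3 slides. Both arrays with the number 2 lay on the same slide and were the furthest from the other arrays of their lines. Arrays 1 and 3 of B16-D-733 carry the same number in their titles and lay on 1 slide. Their difference had an SD of 0.290 across genes, against 0.395 to 0.793 for the other pairs of the line, and whether they are repeat arrays of the same RNA is not given in the sources used here. They were kept as separate arrays, so that n = 4 counts arrays, and with the pair averaged 947 genes were called in place of 1368.

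The cells carried the pigment cell identity on every array. The 7 markers of the lineage, Mitf, Sox10, Pmel, Mlana, Tyr, Tyrp1 and Dct, were well above background on all 7 arrays, and their summed level relative to the 75th percentile lay between 1461 and 1586 in B16-M and between 1455 and 1599 in B16-D-733. None of them passed the test between the lines. The level of Mitf was 6.12 ± 0.10 (SD, n = 4) in B16-D-733 and 5.96 ± 0.11 (SD, n = 3) in B16-M, with an adjusted p of 0.764. Tyr, the enzyme that starts melanin synthesis, had the largest difference of the 7, a log2 change of -0.37 with an adjusted p of 0.27.

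Against this shared identity, 1368 of 22833 tested genes and transcripts differed between B16-D-733 and B16-M at an adjusted p under 0.05 (limma, Benjamini-Hochberg). They were 770 higher, or 3.37% of those tested, and 598 lower, or 2.62%, which makes 5.99% in either direction. The median log2 change over all tested genes was 0.03. The arrays of the lines did not overlap for 19.3% of all tested genes. Of the genes past the threshold, 128 were not well above background on any B16-M array and 34 on no B16-D-733 array. For such genes the fold is given as a bound, the brighter mean against the lowest level that was well above background on the dim arrays. These genes were tested only through the line that detected them, so their direction was set in advance. List counts that hold them were therefore not read as a trait of a list. Normalization, the choice of probes and arrays, the background filter, slides and titles were varied in 24 alternative settings. The setting with the deposited series table held the same intensities, so it could not differ from the main fit. The number of settings under which a gene passed the threshold is given where it bears on a result.

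Genes of the matrix and of its assembly were among the leading rises. Of the 12 named genes with the largest rise, Hapln1, Fkbp10, Emilin1, Olfml1 and Col4a1 belong to a list of 62 genes of the extracellular matrix, basement membrane and collagen maturation. That list was chosen with earlier results of these data known. Hapln1, Emilin1, Olfml1 and Col4a1 were also tested only through B16-D-733, so their number among the 12 was not read as a result about the list. All 12 genes passed under all 24 alternatives.

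Hapln1 encodes the link protein that fastens proteoglycans to hyaluronan. Its level was -7.13, -7.20 and -7.13 on the 3 B16-M arrays, none of them well above background, and 0.53, 0.86, 0.90 and 0.75 on the 4 B16-D-733 arrays. The lines lay far apart, and Hapln1 was at least 50.6-fold higher in B16-D-733, with an adjusted p of 4.66e-07. Fkbp10, a prolyl isomerase of the endoplasmic reticulum that folds procollagen, had levels of -3.77, -4.46 and -4.18 in B16-M and of 2.79, 2.14, 2.31 and 2.09 in B16-D-733. It was well above background on every array and rose by 6.47 ± 0.22 (SE) on the log2 scale, or 88.7-fold, with an adjusted p of 1.70e-09. Emilin1, a glycoprotein of elastic fibres, lay at -6.92, -6.91 and -7.12 in B16-M and at -0.81, -1.12, -0.57 and -1.16 in B16-D-733. It was below background in the parental cells and at least 15.9-fold higher in the dormant line. Col4a1, which encodes a chain of the collagen of basement membranes, was at least 10.7-fold higher, with levels from -6.61 to -6.44 in B16-M and from -1.82 to -0.95 in B16-D-733. Olfml1, a secreted olfactomedin-like protein, was at least 9.14-fold higher, and again no B16-M array detected it.

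The other leading rises had varied roles. Myl9, the regulatory light chain of nonmuscle and smooth muscle myosin, had levels of -5.64, -5.00 and -4.89 in B16-M, all below background, and of 1.74, 0.28, 0.75 and 0.45 in B16-D-733, which made it at least 51.4-fold higher. Array 0 of B16-D-733, the undated array, was the highest of the 4. Rcn3, a calcium-binding protein of the secretory pathway, rose by 5.96 ± 0.27 (SE) on the log2 scale, or 62.0-fold, and its 3 probes gave changes from 4.03 to 5.96. Ctf1, which encodes the cytokine cardiotrophin, was at least 12.5-fold higher, its B16-D-733 levels lying between -1.41 and -1.06. Clu, the secreted chaperone clusterin, lay at -4.41, -5.17 and -3.90 in B16-M, where 2 of 3 arrays were above background, and at 0.52, 0.72, 0.85 and 0.82 in B16-D-733. Its rise was 5.23 ± 0.45 (SE), with an adjusted p of 8.16e-06. Fabp3, a carrier of fatty acids, rose by 5.11, with 1 of 3 B16-M arrays above background and levels from -0.05 to 0.09 in B16-D-733. Ripk3, the kinase of necroptosis, was at least 8.92-fold higher and Cgnl1, a protein of cell junctions and actin, at least 8.11-fold higher. For Cgnl1, 1 of the 4 probes was above background on 3 or more arrays, and the mean of its probes changed by 1.61.

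**Figure D1:**
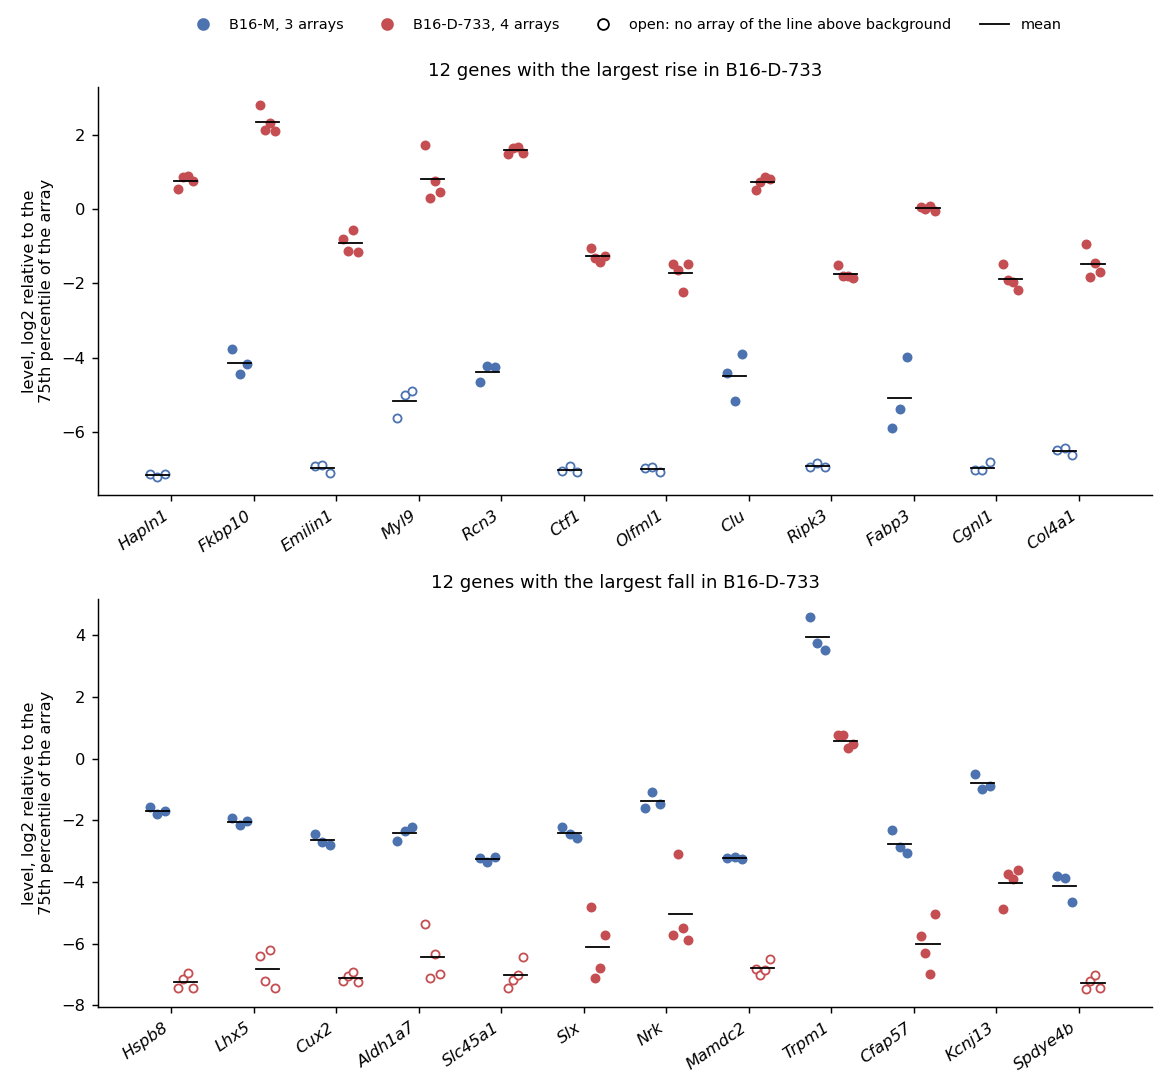
Level of the 12 genes with the largest rise (top) and the 12 with the largest fall (bottom), in log2 units relative to the 75th percentile of the array, with 1 point for each of the 3 B16-M and 4 B16-D-733 arrays and a line at the mean. Open points mark a line in which no array was well above background. The lines do not overlap for any of the 24 genes, and array 1 of B16-D-733 stands above the other 3 for Nrk.

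The 12 genes with the largest falls had varied roles. Hspb8, a small heat shock protein, had levels of -1.57, -1.80 and -1.71 in B16-M and of -7.43, -7.14, -6.96 and -7.44 in B16-D-733, where no array was above background. It was at least 9.60-fold lower, with an adjusted p of 1.68e-05. The homeodomain factors Lhx5 and Cux2 were at least 7.56-fold and 4.99-fold lower, and neither was above background on any B16-D-733 array. Aldh1a7, an aldehyde dehydrogenase, was at least 5.85-fold lower, Mamdc2, a secreted MAM domain protein, at least 3.32-fold lower, and Slc45a1, a sugar transporter, at least 3.28-fold lower. Spdye4b, of the Speedy family of cyclin-dependent kinase activators, was at least 1.80-fold lower. Kcnj13, a potassium channel, fell by 3.23 on the log2 scale and stayed above background in both lines. Nrk, a protein kinase, fell by 3.67, and its 4 levels of -5.71, -3.09, -5.49 and -5.89 were the most spread of the falls. Cfap57, a protein of cilia, fell by 3.25, and Slx, an X-linked gene of a multicopy family whose copies a probe may not separate, by 3.69. Of the 12 falls, Hspb8, Lhx5, Cux2, Aldh1a7, Mamdc2, Kcnj13 and Spdye4b passed under all 24 alternatives. Slc45a1, Slx and Nrk passed under 23 and Trpm1 and Cfap57 under 22.

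Trpm1, the cation channel melastatin of pigment cells, was among the largest falls although the 7 lineage markers did not pass. Its levels were 4.57, 3.74 and 3.51 in B16-M and 0.75, 0.77, 0.36 and 0.47 in B16-D-733, a fall of 3.36 ± 0.58 (SE) on the log2 scale with an adjusted p of 0.00346. The lines did not overlap, although its 6 probes gave changes from -3.39 to -0.65, and with the title date as a term the adjusted p was 0.0638. Of the 28 tested genes of pigment cell identity and melanin, 2 were higher and 2 lower, beside 3.37% and 2.62% of all tested genes. The other 24 did not pass, and the median log2 change of the list was -0.07. Kit, the receptor of stem cell factor, was higher by 0.93, with levels from -1.47 to -1.10 in B16-M and from -0.80 to 0.16 in B16-D-733. Tfap2a, a neural crest transcription factor, was higher by 0.48. Rab32, which guides cargo to melanosomes, was lower by 0.68, falling from 3.33 ± 0.03 (SD, n = 3) to 2.65 ± 0.18 (SD, n = 4). With the replicate number as a block, the adjusted p was 0.0502 for Kit, 0.115 for Tfap2a and 0.054 for Rab32. Kit passed under 11 of the 24 alternatives and Tfap2a under 7.

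The 250 bases before the start of 4 of these genes are shown because the genes were among the largest rises and falls. They are RefSeq promoter windows in GRCm38.p6, written 5′ to 3′ on the plus strand, on which all 4 genes lie. Capitals mark matches to 4 motifs searched on both strands, namely TGACTCA or TGAGTCA (AP-1), CATGTG or CACATG (the core of the M-box bound by MITF), CACGTG (the E-box) and the CArG box bound by SRF. Trpm1 has windows at both of its annotated starts.

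Hapln1, chr13:89540386-89540635: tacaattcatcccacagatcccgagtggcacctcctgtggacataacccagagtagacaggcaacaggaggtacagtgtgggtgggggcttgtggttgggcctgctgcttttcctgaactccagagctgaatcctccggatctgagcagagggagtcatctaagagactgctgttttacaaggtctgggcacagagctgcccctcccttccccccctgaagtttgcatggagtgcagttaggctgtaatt
Emilin1, chr5:30913536-30913785: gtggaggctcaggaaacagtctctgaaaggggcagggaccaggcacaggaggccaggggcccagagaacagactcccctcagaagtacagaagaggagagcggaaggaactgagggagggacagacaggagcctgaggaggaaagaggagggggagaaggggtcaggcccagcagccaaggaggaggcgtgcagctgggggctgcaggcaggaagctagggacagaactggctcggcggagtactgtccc
Myl9, chr2:156775214-156775463: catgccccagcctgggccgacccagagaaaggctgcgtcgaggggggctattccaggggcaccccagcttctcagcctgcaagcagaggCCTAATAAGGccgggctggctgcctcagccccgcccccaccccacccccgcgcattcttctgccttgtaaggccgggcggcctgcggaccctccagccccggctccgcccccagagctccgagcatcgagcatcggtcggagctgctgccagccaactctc
Trpm1, first window, chr7:64153585-64153834: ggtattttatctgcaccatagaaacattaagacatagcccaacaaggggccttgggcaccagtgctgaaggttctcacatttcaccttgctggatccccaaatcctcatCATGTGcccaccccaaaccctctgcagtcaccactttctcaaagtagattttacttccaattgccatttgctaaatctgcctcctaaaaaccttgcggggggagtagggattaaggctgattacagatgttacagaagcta
Trpm1, second window, chr7:64185209-64185458: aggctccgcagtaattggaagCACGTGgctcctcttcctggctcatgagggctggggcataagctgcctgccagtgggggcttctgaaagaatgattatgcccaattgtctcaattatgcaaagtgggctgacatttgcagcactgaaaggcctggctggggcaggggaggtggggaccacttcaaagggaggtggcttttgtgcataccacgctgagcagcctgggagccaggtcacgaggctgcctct

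The Myl9 window held 1 CArG box, which 1.47% of the 32851 promoter windows in the table hold. The first Trpm1 window held 1 M-box core, found in 12.3% of all windows, and the second 1 E-box, found in 6.02%. None of the 4 motifs was in the windows of Hapln1 and Emilin1, and AP-1 motifs, found in 4.46% of all windows, were in none of the 5. A match is a stretch of letters and was not tested as a binding site.

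Across the whole list, 44 of the 62 genes of the extracellular matrix were tested, of which 8 were higher, 0 were lower and 36 did not pass. Against a background of 3.37% higher, the share was 8 of 44. Hapln1, Emilin1, Olfml1 and Col4a1, above background on no B16-M array, were tested only through B16-D-733 and could only be called higher. The share was therefore not read as a trait of the list, and no test of the list was run. The median log2 change of the list was 0.15, or 0.12 with undetected genes at their bound, beside 0.03 over all tested genes, so most of its members moved little. Besides the 5 leading genes, Lamb1, a laminin chain of basement membranes, was higher by 2.00, its B16-M levels lying between -1.54 and 0.50 and its B16-D-733 levels between 0.85 and 1.86. Thbs2, a thrombospondin, was higher by 1.37 and P4ha2, a prolyl hydroxylase of collagen, by 0.93. Thbs2 passed under 11 of the 24 alternatives, and P4ha2 had an adjusted p of 0.0595 with the replicate number as a block. The partner chain of Col4a1, Col4a2, had a log2 change of 0.81 with an adjusted p of 0.218, and Fn1, fibronectin, one of 1.10 with an adjusted p of 0.136. The fibrillar collagen genes Col1a1 and Col3a1 were too dim to be tested.

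Neural crest and invasive state genes gave 4 rises and no fall among 18 tested, beside 3.37% and 2.62% of all tested genes. Pdgfrb and Ngfr, above background on no B16-M array, were tested only through B16-D-733 and could only be called higher. The 4 rises were therefore not read as a trait of the list. The median was 0.06. Pdgfrb, the receptor of platelet-derived growth factor B, was below background at -6.87, -6.87 and -7.04 in B16-M and reached -2.06, -3.01, -2.63 and -3.17 in B16-D-733, at least 4.54-fold higher. Pdgfrb is also a marker of fibroblasts and pericytes. Of that list Dcn, Thy1 and Rgs5 were above background on none of the 7 arrays, and its summed level was 0.644 to 0.772 in B16-M and 0.674 to 0.934 in B16-D-733. Aqp1, a water channel with 1 of 3 B16-M arrays above background, rose by 2.47, and Ngfr, the nerve growth factor receptor of neural crest-like melanoma cells, was at least 1.77-fold higher, with no B16-M array and all B16-D-733 arrays above background. Vim, vimentin, differed by 0.37, from 6.30 ± 0.07 (SD, n = 3) to 6.67 ± 0.16 (SD, n = 4), and its adjusted p was 0.0357 without and 0.127 with the replicate number as a block. Ngfr was the only one of 15 tested genes linked to spread to the brain that passed, beside 5.99% of all tested genes. The median of that list was -0.19, but 0.12 with the title date as a term and 0.30 within 1 of the slides.

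In the actin and contractility list, 3 of 33 tested genes were higher and 1 was lower, beside 3.37% and 2.62% of all tested genes. The median was 0.18. Beside Myl9, the small GTPases Rhob and Rnd3 were higher by 0.89 and 0.71, while Myl6, the myosin essential light chain, was lower by 0.44. Rhob and Myl6 had adjusted p-values of 0.0794 and 0.100 with the replicate number as a block, and Myl6 passed under 6 of the 24 alternatives. Of 29 tested adhesion receptors, 0 were higher and 4 were lower, beside 2.62% lower among all genes, and the median was -0.20. Itga9, an integrin subunit, fell by 1.21 ± 0.13 (SE), its levels of 0.33, 0.36 and 0.58 in B16-M lying above all of -0.61, -0.83, -0.81 and -0.89 in B16-D-733. The syndecan Sdc3 fell by 1.47, the neural cell adhesion molecule Ncam1 by 1.14 and the integrin subunit Itga1 by 0.94. The 4 probes of Ncam1 gave changes from -1.14 to -0.37, and Itga1 passed under 10 of the 24 alternatives.

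**Figure D2:**
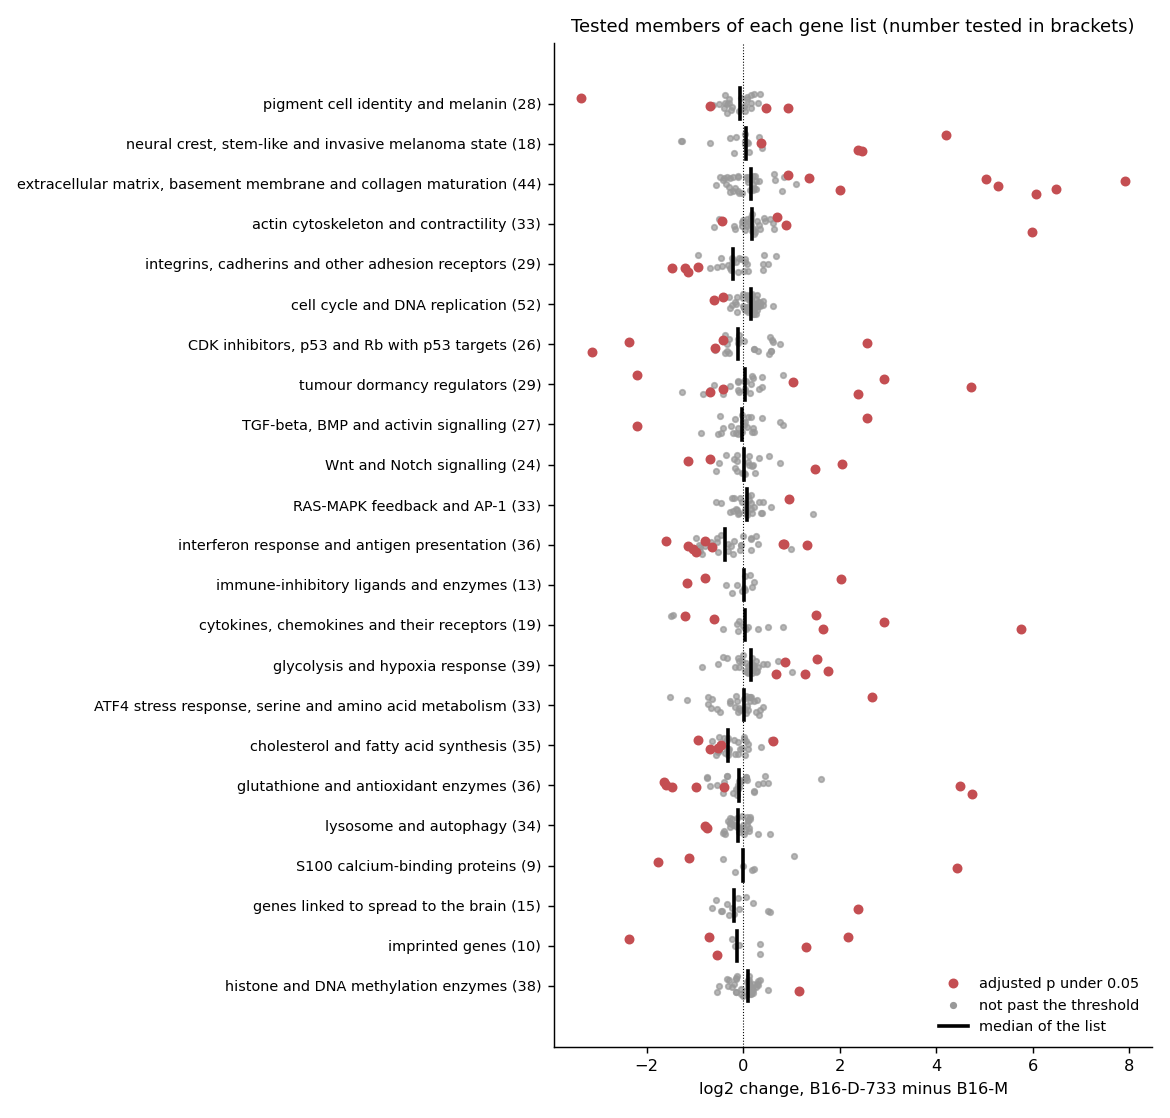
Log2 change, B16-D-733 minus B16-M, of the tested members of 23 gene lists, with 1 point for each gene, red where the adjusted p was under 0.05, and a bar at the median of the list. The medians lie between -0.38 for the interferon list and 0.18 for the actin list. For genes not above background in 1 of the lines, a point is the fitted change and not a measured size.

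Among 29 tested regulators of tumour dormancy, 4 were higher and 3 lower, beside 3.37% and 2.62% of all tested genes. Their median was 0.04. Gas6, the ligand of the receptors Tyro3, Axl and Mertk, had the largest change. Its levels were -4.64, -5.62 and -5.97 in B16-M, with 1 of 3 arrays above background, and -0.54, -0.84, -0.70 and -0.68 in B16-D-733. The 4 arrays of B16-D-733 lay close together, and the rise was 4.72 ± 0.41 (SE) on the log2 scale, with an adjusted p of 1.02e-05. Its receptor Tyro3 was higher by 1.04, with levels between 3.29 and 3.46 in B16-D-733 against 2.16 to 2.49 in B16-M and an adjusted p of 0.000199. Axl had a log2 change of -1.27 with an adjusted p of 0.193, and Mertk was too dim to be tested. Lifr, the receptor of leukemia inhibitory factor, was below background on all B16-M arrays and at least 2.48-fold higher. The secreted factor Igfbp7, with 1 of 3 B16-M arrays above background, was higher by 2.37, with B16-M levels of -7.09, -6.97 and -4.72 that spread widely, and its adjusted p was 0.138 with the replicate number as a block. Tgfb1, which encodes the cytokine TGF-beta, fell by 2.20 ± 0.40 (SE), from -0.80, -0.76 and -0.52 in B16-M to -2.80, -3.11, -2.75 and -2.91 in B16-D-733. With the title date as a term the adjusted p of Tgfb1 was 0.0805. Dkk3, a secreted Wnt modulator, was lower by 0.70, with an adjusted p of 0.057 with the replicate number as a block.

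All 52 genes of the cell cycle and DNA replication list were tested, and 0 were higher, 2 were lower and 50 did not pass, a share near the 5.99% called among all tested genes, with a median of 0.15. The level of Mki67, a marker of cycling cells, lay between 4.77 and 5.24 in B16-M and between 4.56 and 5.04 in B16-D-733, with a log2 change of -0.26 and an adjusted p of 0.601. Cdk2 was lower by 0.61 and the cyclin Ccnd3 by 0.42, and their adjusted p-values were 0.0842 and 0.104 with the replicate number as a block. Among the CDK inhibitors, Cdkn1c fell by 2.36, Cdkn2c by 0.59 and Cdkn1b by 0.41, while Cdkn1a and Cdkn2d had log2 changes of 0.55 and -0.30 with adjusted p-values of 0.404 and 0.0842. Cdkn1c had levels from -3.07 to -2.80 in B16-M and from -6.21 to -4.83 in B16-D-733, where 1 of 4 arrays was above background. Cdkn1b had an adjusted p of 0.136 with the replicate number as a block and passed under 6 of the 24 alternatives, and Cdkn2c passed under 13. Perp, a p53 target of cell adhesion and death, was below background on all B16-D-733 arrays and at least 1.97-fold lower, and Gdf15, another p53 target and a stress cytokine, was at least 2.40-fold higher. Of 26 tested genes of CDK inhibition and p53, 1 was higher and 4 lower, beside 3.37% and 2.62% of all tested genes.

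In other growth factor pathways, single members passed. Of 27 tested genes of TGF-beta, BMP and activin signalling, Gdf15 was higher and Tgfb1 lower, a share near the 5.99% of all tested genes. Of 24 tested Wnt and Notch genes, 2 were higher and 2 lower, beside 3.37% and 2.62% of all tested genes. The paired transcription factors of the pathway, Tcf7 and Lef1, were the rises, Tcf7 by at least 3.39-fold and Lef1 by 1.48 on the log2 scale. Lef1 was above background on 1 of 3 B16-M arrays, and its adjusted p was 0.054 with the replicate number as a block. The ligand Wnt6 fell by 1.13 and Dkk3 as above. Myc was the only one of 33 tested genes of RAS-MAPK feedback and AP-1 that passed, beside 5.99% of all tested genes. Its levels were 0.91, 0.54 and 0.66 in B16-M and 1.88, 1.54, 1.96 and 1.22 in B16-D-733. It was higher by 0.94 and passed under 17 of the 24 alternatives.

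In the list of antigen presentation and the interferon response, 3 class I genes were higher and several interferon-induced genes were lower. Of 36 tested genes, 3 were higher and 6 lower, beside 3.37% and 2.62% of all tested genes. The median was -0.38, the lowest of the 23 lists, with -0.62, -0.38 and -0.30 within the 3 slides. The number of lower genes was 11 with the slide or the replicate number as a block, 2 with the title date as a term and 0 with the undated array alone, and it ran from 0 to 15 over the alternatives. The 3 rises were all class I genes. H2-K1, a classical class I chain, had levels of 0.03, 0.29 and 0.01 in B16-M and of 1.68, 1.49, 1.18 and 1.34 in B16-D-733, a rise of 1.31 ± 0.16 (SE) with an adjusted p of 0.000198. H2-D1 and the nonclassical H2-T23 were higher by 0.83 and 0.85. H2-Q4 and H2-M3, also class I genes of the list, were not among the genes called. Class I genes are alike in sequence, and the signal of a probe may include that of related genes. B2m, the shared light chain, had a log2 change of -0.06 with an adjusted p of 0.962. The loading protein Tapbp was lower by 1.04, although its 2 probes gave -1.04 and -0.15. Ddx58, the RNA sensor RIG-I, was lower by 1.15, with levels of 0.08, 0.40 and 0.73 in B16-M and of -0.76, -0.69, -0.71 and -0.82 in B16-D-733. The interferon-induced genes Xaf1, Ifi27 and Bst2 were lower by 1.61, 0.98 and 0.79, and the receptor subunit Ifngr1 by 0.64. Xaf1 passed under 9 and Ifi27 under 10 of the 24 alternatives.

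Signals toward immune cells also differed. The ligand Cd274, PD-L1, was lower by 0.79, from -1.95 ± 0.07 (SD, n = 3) to -2.74 ± 0.18 (SD, n = 4), and passed under 10 of the 24 alternatives. Ceacam1 was lower by 1.16, and Lgals3, galectin, was higher by 2.02 ± 0.39 (SE), with levels of 5.05, 4.28 and 4.62 against 6.83, 6.59, 6.59 and 6.65. Of 13 tested inhibitory ligands and enzymes, these 3 passed, beside 5.99% of all tested genes. Of 19 tested cytokines and their receptors, 4 were higher and 2 lower, beside 3.37% and 2.62% of all tested genes. Cxcl10, a chemokine that draws T cells, was higher by 1.51, its levels of 0.29, 0.98 and 1.01 in B16-M lying below 1.73, 2.58, 2.38 and 2.40 in B16-D-733. Tslp, a cytokine of epithelia, was higher by 1.65, with 1 of 3 B16-M arrays above background. The other rises were Ctf1 and Lifr, which were tested only through B16-D-733. The falls were Il18, by 1.21, and Csf1, by 0.60, and the adjusted p of Csf1 was 0.0572 with the replicate number as a block. With the title date as a term, 4 of the 19 were higher and 0 lower, so neither Il18 nor Csf1 was called lower there.

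**Figure D3:**
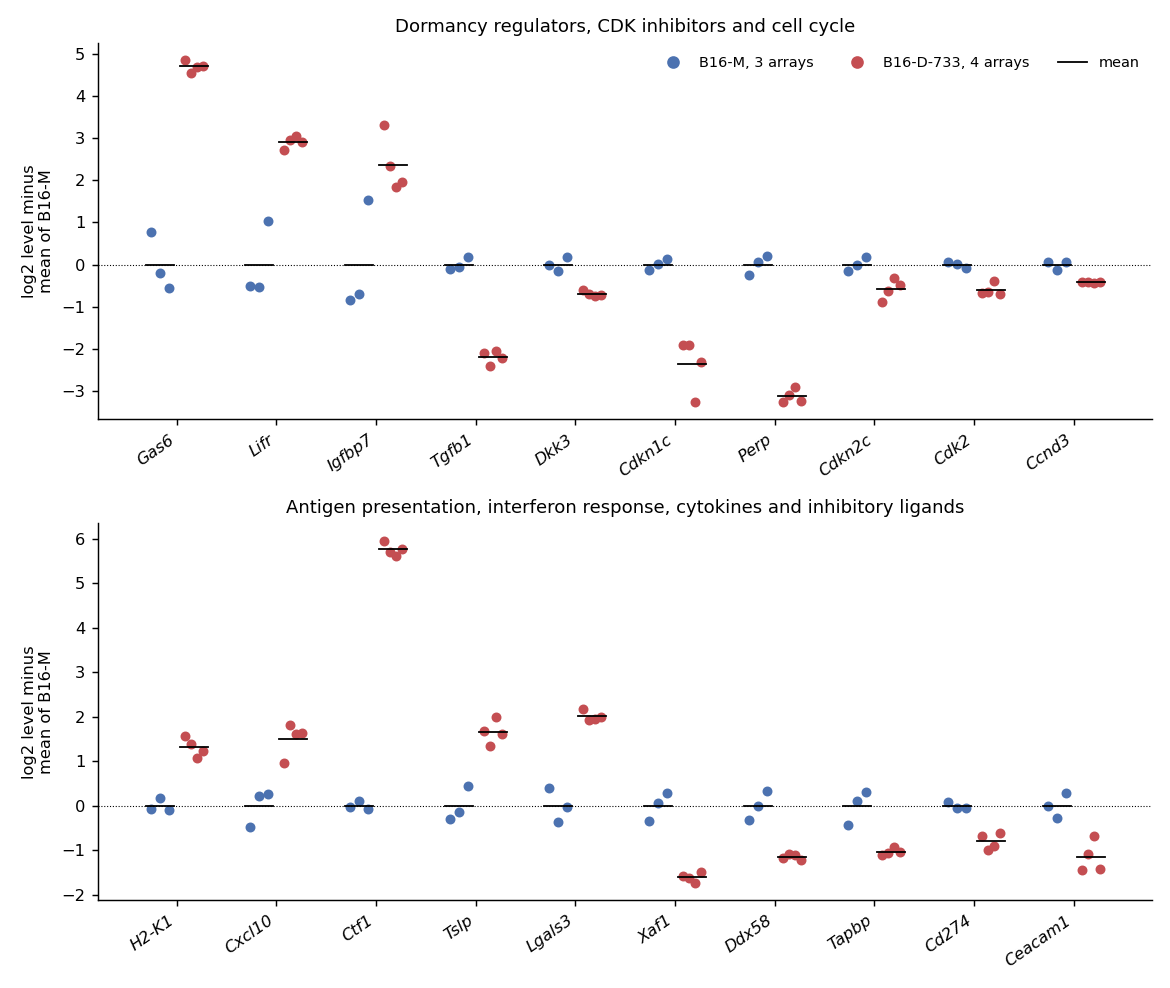
Level of 20 genes on each of the 3 B16-M and 4 B16-D-733 arrays, in log2 units after subtraction of the B16-M mean of the gene, with a line at the mean of each line. H2-K1 is higher by 1.31 and Tgfb1 lower by 2.20, and no gene shows overlap between the lines. Lifr and Ctf1 were not above background in B16-M, nor Perp in B16-D-733.

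In metabolism, 5 of 39 tested genes of glycolysis and the hypoxia response were higher and 0 lower, beside 3.37% and 2.62% of all genes. Their median was 0.17. Epas1, the hypoxia-inducible factor HIF-2 alpha, rose by 1.76 ± 0.20 (SE), from -1.71, -1.58 and -1.35 in B16-M to 0.18, 0.26, 0.32 and 0.10 in B16-D-733. It passed under all 24 alternatives. The lactate exporter Slc16a3 was higher by 1.53 and Hk1, hexokinase, by 1.28. Pdk1, which restrains pyruvate entry into mitochondria, was higher by 0.87, and Pfkfb3, an activator of glycolysis, by 0.69. The lowest probe changes of Hk1 and Pdk1 were -0.04 and -0.07, so that their probes disagreed, and the adjusted p of Pdk1 was 0.068 with the replicate number as a block. Cholesterol and fatty acid synthesis had the second lowest median, -0.31. Of its 35 tested genes, 1 was higher and 4 lower, beside 3.37% and 2.62% of all tested genes. The sterol pathway genes Tm7sf2, Insig1, Fdft1 and Fdps were lower by 0.93, 0.68, 0.53 and 0.45, and the elongase Elovl6 was higher by 0.62. With the replicate number as a block the adjusted p-values were 0.106 for Fdft1 and 0.113 for Fdps. With the title date as a term, 0 genes of this list were higher and 3 lower.

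Glutathione and antioxidant enzymes held both rises and falls. Gsta4, a glutathione transferase for lipid aldehydes, had levels of -4.80, -4.80 and -6.06 in B16-M and of -1.12, -0.62, -0.51 and -0.68 in B16-D-733. It rose by 4.49 ± 0.36 (SE), with 1 of 3 B16-M arrays above background. Sod3, the extracellular superoxide dismutase, was at least 6.52-fold higher, and its level of -0.92 on array 0 stood above -2.59, -2.77 and -2.51 on the other 3. The transferases Mgst1, Gstt1, Gstt2, Gsta2 and Gstm5 were lower, by 1.64, 1.60, 1.46, 0.98 and 0.40. In this list, 2 of 36 tested genes were higher and 5 lower, beside 3.37% and 2.62% of all tested genes. Gsta2 and Gstm5 have close paralogs, and their adjusted p-values were 0.0576 and 0.127 with the replicate number as a block. In the ATF4 list, Vldlr, a lipoprotein receptor, was the only one of 33 tested genes that passed, beside 5.99% of all genes. It rose by 2.66. Psap, which encodes the precursor of the saposins of the lysosome, was lower by 0.75.

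Smaller families showed changes of single genes. S100a6, a calcium-binding protein, had levels of -4.06, -2.66 and -2.26 in B16-M and of 2.33, 1.06, 1.25 and 1.15 in B16-D-733, a rise of 4.44 ± 0.73 (SE) with an adjusted p of 0.00237. S100b, the S100 protein used as a melanoma marker, fell by 1.76, with levels from 4.84 to 5.24 in B16-M and from 3.10 to 3.32 in B16-D-733, and S100a1 fell by 1.12. The adjusted p of S100a1 was 0.0789 with the replicate number as a block. Of 10 tested imprinted genes, 2 were higher and 3 lower, beside 3.37% and 2.62% of all tested genes. Mest and Ddc were higher, by 2.17 and 1.29, and Cdkn1c, Phlda2 and Plagl1 were lower. Phlda2 was lower by 0.71 and Plagl1 by 0.54, with adjusted p-values of 0.0651 and 0.0662 with the replicate number as a block. Nsd1, a histone H3 methyltransferase, was the only one of 38 tested histone and DNA methylation enzymes that passed, beside 5.99% of all genes. It rose by 1.16 ± 0.13 (SE) from levels between -1.88 and -1.66.

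Markers of brain cells and of other cell types were examined because the line came from a brain site. Neuron, lymphocyte, epithelial and leukemia cell markers had no gene past the threshold. Few were bright enough to be tested, namely 2 of 8 neuron, 4 of 7 lymphocyte, 2 of 6 epithelial and 2 of 9 leukemia markers. Beside 5.99% called among all tested genes, the lack of a call among so few says little about these cell types. Mbp, a myelin protein, was higher by 2.14 ± 0.37 (SE), and the summed level of 6 oligodendrocyte markers was 4.09 to 8.96 in B16-M and 8.94 to 10.7 in B16-D-733, with none of the 6 below background on all 7 arrays. Vwf, of endothelium, rose by 3.20, with 1 of 3 B16-M arrays above background, while Cdh5, Kdr, Tek, Cldn5 and Emcn were not above background on any of the 7 arrays, and the summed level was 0.143 to 0.167 in B16-M and 0.391 to 0.570 in B16-D-733. The part of other cell types in these differences was not tested. Aldh1l1, an astrocyte marker, and Tmem119, a microglia marker, were lower by 1.16 and 1.44, Tmem119 with 2 of 4 B16-D-733 arrays above background. Ptprc, Aif1, P2ry12 and Adgre1 of the macrophage list and Slc1a2, Slc1a3 and Gjb6 of the astrocyte list were above background on none of the 7 arrays. In bulk RNA, fewer cells of a type and less RNA per cell cannot be told apart.

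The same genes were then set beside the first dormant line, B16-D, and the other lines of the second generation, B16-D-735 and B16-D-739 (3 arrays each). These comparisons with B16-M share its 3 arrays, so their values stand side by side and their likeness is not a result. Between B16-D-733 and B16-D themselves, 114 of 22833 genes passed the threshold, or 0.499%. Of the named genes, 10 were among them. The named genes were chosen by their change in the same B16-D-733 arrays, so this number is not a share to set beside 0.499%.

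Some of the leading genes were also high in B16-D, and others went beyond it. The mean level was -1.65 in B16-D and -1.48 in B16-D-733 for Col4a1, 0.15 and 0.81 for Myl9, and -2.06 and -1.71 for Olfml1, and for none of these did the direct comparison pass, with an adjusted p of 0.912 for each. The log2 differences between B16-D-733 and B16-D were 0.17, 0.65 and 0.35. Hapln1, Fkbp10 and Emilin1 went beyond B16-D, by 2.69 ± 0.50, 1.68 ± 0.22 and 1.06 ± 0.15 (SE), with adjusted p-values of 0.0308, 0.00204 and 0.00485. Their mean levels were 0.76, 2.33 and -0.91 in B16-D-733, -6.21, -1.77 and -0.45 in B16-D-735, and 0.09, 2.37 and -1.15 in B16-D-739. In B16-D the means were -1.93, 0.65 and -1.97. Its replicate 2, not in these means or the fit, had -0.98, 0.24 and -1.35, below all B16-D-733 arrays for each gene. For Col4a1 the mean level was -5.59 in B16-D-735 and -1.81 in B16-D-739. Ripk3, Fabp3 and Cgnl1 also lay above B16-D, by 1.94, 2.23 and 1.20. B16-D replicate 2, left out of the fit, had levels of -2.81, -1.58 and -1.32 for these genes. For Cgnl1 that lay above all B16-D-733 arrays, the highest of which was -1.49. The direct comparison was run in the main setting only, without that array.

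Among the named genes that passed, Gas6 and Clu had the largest differences from B16-D. The mean level of Gas6 was -4.85 ± 0.59 (SD, n = 3) in B16-D and -0.69 ± 0.12 (SD, n = 4) in B16-D-733, a difference of 4.16 with an adjusted p of 0.000149. In B16-D-735 its mean level was -0.65 and in B16-D-739 -5.81. Clu had mean levels of -2.76 ± 0.96 (SD, n = 3) in B16-D, -4.01 in B16-D-735 and -3.88 in B16-D-739 against 0.73 in B16-D-733, and the difference from B16-D was 3.49 with an adjusted p of 0.00168. Hspb8 was lower in B16-D-733 than in B16-D by 3.26 on the log2 scale as fitted, with an adjusted p of 0.00876. Its mean level was 0.03 in B16-D-735 and -6.64 in B16-D-739. Mbp lay 2.12 above B16-D, with an adjusted p of 0.0195, and its mean levels in B16-D-735 and B16-D-739 were -0.35 and -1.45. Differences between B16-D-733 and the other second-generation lines were not tested.

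**Figure D4:**
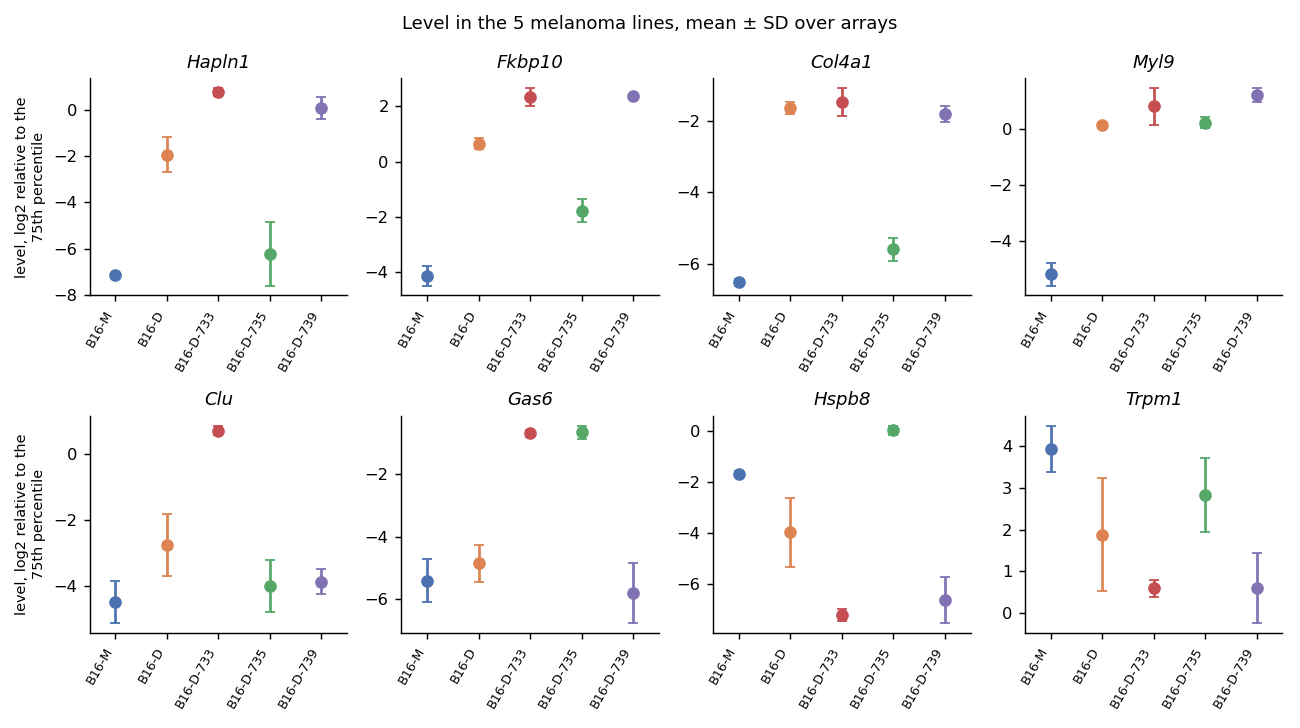
Mean level ± SD of 8 genes in B16-M (3 arrays), B16-D (3), B16-D-733 (4), B16-D-735 (3) and B16-D-739 (3), in log2 units relative to the 75th percentile of the array. Myl9 is raised in all 4 dormant lines, Clu is highest in B16-D-733, and Gas6 is high in B16-D-733 and B16-D-735, at mean levels of -0.69 and -0.65.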

How the data were processed

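Total RNA was labelled with Cy3 and hybridised to Agilent 8 × 60k mouse arrays. Agilent Feature Extraction 10.7.3.1, named in the submitters' processing notes, made the deposited intensity of each spot, background-subtracted and detrended per the file headers, with no scaling between arrays. The deposited series table held the same intensities. Spots marked as outliers were left out, spots of a probe were averaged, each array's log2 intensities were set against their 75th percentile, and each of 22907 gene symbols (7898 with several probes) and 22715 unnamed transcripts was represented by its brightest probe over the 7 arrays. Tested were those well above background on at least 3 of 7 arrays (13599 with a symbol). Probe accessions were named through RefSeq (GRCm38.p6), and the grid build is mm9, so no gene coordinates are given beyond the promoter windows.

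The test was limma 3.58.1 (R 4.3.3), two-sided, on group means over 16 melanoma arrays without B16-D replicate 2, with Benjamini-Hochberg adjustment and 11 residual and 1.846 prior degrees of freedom. For 18 tested genes, a value on 1 or more of the 7 arrays was missing. Named are the 12 largest rises and 12 largest falls among genes past the threshold with lines apart, a probe above background on all arrays of a line and a proper symbol, up to 4 members of each list with the largest change, and 7 identity markers. Other list members past the threshold, and members named with a value that did not pass, were chosen after their values were seen. A further gene that the rule selects is not reported here. The members and lists were chosen with earlier results of these data known. B16-M and B16-D-733 arrays of the same title number deviated together (correlations 0.62, 0.42 and 0.86 for numbers 0, 1 and 2), so the replicate number was used as a block in an alternative. Array 3 of B16-D-733, which also has the number 1, kept a number of its own, and in a further alternative it shared number 1. The normexp alternative used median signals, since the files have no mean signal column. The fit was also run on data simulated for this comparison with known changes, in which the arrays varied independently of slide and replicate number. The alternatives without 1 slide and with the undated array alone were added after the data were seen. Tables were handled with Python 3.11.15, numpy 2.4.6, pandas 2.3.3 and matplotlib 3.10.9. The number of arrays limits the precision.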

Additional observations from a re-analysis of the deposited data

Results flagged for a closer look

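Among the named genes, 10 differed between B16-D-733 and the first dormant line B16-D in the direct comparison over all genes. That comparison was run in the main setting only, without B16-D replicate 2, whose Cgnl1 level lay above all B16-D-733 arrays. The named genes were chosen by their change in the same B16-D-733 arrays, so their number is not compared with the share over all genes. The log2 difference, B16-D-733 minus B16-D, was 4.16 for Gas6, 3.49 for Clu, 2.69 for Hapln1, 2.23 for Fabp3, 2.12 for Mbp, 1.94 for Ripk3, 1.68 for Fkbp10, 1.20 for Cgnl1, 1.06 for Emilin1 and -3.26 for Hspb8. All of these except Hspb8 were higher in B16-D-733.

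For 5 of the 95 named genes, 1 array of B16-D-733 stood far from the other 3. The gap to the nearest array, as a share of the range of the 4 arrays, was 0.854 for Nrk, 0.839 for Cdk2, 0.846 for Vldlr, 0.862 for Sod3 and 0.853 for S100a6. That is above the 95% limit of Dixon's test for 4 values, which chance exceeds in about 1 of 20 groups, so that the count is near what chance gives. The array that stood apart was number 1 for Nrk and number 2 for Cdk2. It was the undated number 0, always as the highest, for Vldlr, Sod3 and S100a6.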

How the results depend on the processing

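Of the 88 named genes past the threshold, 29 passed under all 24 alternatives. Their lines did not overlap, which fixes the direction within each slide and without any 1 array. With the title date as a term 60 of the 88 passed, and with the undated array alone 37. With the replicate number as a block, 73 of the 88 passed, or 86, all but Vim and Igfbp7, with both arrays titled 1 under that number, and under the first of these blocks no call changed beyond those given beside the genes. The identity markers without a call turned sign in places. Tyrp1 changed by -0.091 after quantile normalization, -0.075 after normexp, -0.0066 with the title date as a term and -0.093 with the undated array alone. Mlana changed by -0.030 after quantile normalization and -0.13 with the undated array alone. Sox10 changed by -0.10 after quantile normalization, -0.075 after normexp, -0.039 with the title date and -0.049 with the undated array alone. Without 1 array at a time, Tyrp1 ran from -0.011 to 0.078, Mlana from -0.0078 to 0.10 and Sox10 from -0.033 to 0.075.

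The count of genes depended more on the settings, and the cause was not tested. Beside 770 higher and 598 lower genes (1368 in all), arrays centred on their median gave 408 and 243 (651), no filter on dim probes 515 and 380 (895), the 7 arrays alone 491 and 442, all 24 arrays 476 and 401 (877), and the slide as a block 1343 and 988 (2331). The title date as a term gave 663 and 361, the replicate block 582 and 508 (1090), that block with both arrays titled 1 together 1363 and 1197 (2560), and the 2 arrays titled 1 averaged 554 and 393. Without 1 array at a time, 772 to 1262 genes were called, and 314 to 527 were lower. The fewest, 397 higher and 375 lower, came without B16-M replicate 1, and 839 and 911 genes were called without B16-M replicate 2 and B16-D-733 replicate 1. Counts were 481 and 366 (847) without the slide of both number 2 arrays and 249 and 105 (354) with the undated array of B16-D-733 alone. Of the 4 B16-D-733 titles, 3 carry a date and no B16-M title does, so the date was separated from the line only through B16-D and the single undated array, and its part in the result was not tested.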
